A study of Mus musculus with 4 samples.

Results

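The genes of cholesterol and fatty acid synthesis were followed in mouse bone marrow cells grown into osteoclasts, the multinucleated cells that resorb bone. The members were chosen by gene symbol: 39 genes were listed, and every probe set whose platform annotation gave one of these symbols alone was taken. They covered 38 of the 39 genes with 91 probe sets, out of 18193 named genes on the array. Acat2, which encodes an acetyl-CoA acetyltransferase, had no such probe set and is not analysed here. The members fell into 4 groups: 18 enzymes of sterol synthesis, 6 genes that regulate the sterol-sensing factors or carry sterols, 11 enzymes of fatty acid synthesis, and 3 genes of cholesterol efflux and of the response to excess sterol.

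The cells came from the marrow of female C57Bl/6J mice aged 12 weeks, with no allele or transgene named, and the labels do not say how many animals were used or whether the arrays share a culture. Day 1 was fresh marrow on the day of extraction. Day 4 came after 3 days of culture in 10% serum with vitamin D3 at 10 nM, a hormone that makes marrow stroma produce RANKL. On days 5 and 7 cells also received M-CSF (20 ng/ml), on which macrophages and their precursors depend, and RANKL (40 ng/ml), which turns such precursors into osteoclasts. The labels count the same times as 0, 3, 4 and 6 days of differentiation. All 4 samples carry the label of primary osteoclasts. On day 1 the osteoclast genes Calcr, Dcstamp, Ocstamp and Oscar were under the floor. The remaining osteoclast markers, which were most of that list, were above it, as were all 10 red cell markers. There was 1 Affymetrix array at each time, so no value has a replicate, no test could be made, and the values describe these arrays. M-CSF and RANKL cannot be told apart from time in culture.

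Cholesterol is built from acetyl-CoA. The mevalonate pathway leads to farnesyl diphosphate, from which one branch runs through squalene to sterols and another to geranylgeranyl diphosphate, the lipid that anchors small GTPases to membranes. Osteoclasts depend on that second branch for their ruffled border, and the bisphosphonate drugs that contain nitrogen act on them by blocking farnesyl diphosphate synthase. Transcription of these enzymes is driven by the sterol regulatory element binding proteins, SREBPs. Their escort protein Scap is held in the endoplasmic reticulum by the Insig proteins when sterols are plentiful. The liver X receptors, LXRs, act in the opposite sense: oxidised sterols activate them, and they raise the cholesterol exporters Abca1 and Abcg1 and the ubiquitin ligase Mylip, which marks lipoprotein receptors for degradation.

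Promoter windows of 4 members are printed because these genes stand for the patterns described below: Hmgcs1, Insig1 and Lss were highest on day 7, and Abca1 was lowest there. Each window runs from 250 bases before to 50 bases after the transcription start in the RefSeq annotation of GRCm38.p6, 5′ to 3′ on the gene's strand. Hmgcs1 lies at chr13:119690101-119690400 on the plus strand, Insig1 at chr5:28071162-28071461 on the plus strand, Lss at chr10:76531355-76531654 on the plus strand and Abca1 at chr4:53159846-53160145 on the minus strand. Capitals mark matches, on either strand, to an SREBP site (TCACNCCAC), an E-box (CACGTG), the core of the NF-Y box (CCAAT) or the GC box (GGGCGG); no matches overlapped in these windows.
Hmgcs1: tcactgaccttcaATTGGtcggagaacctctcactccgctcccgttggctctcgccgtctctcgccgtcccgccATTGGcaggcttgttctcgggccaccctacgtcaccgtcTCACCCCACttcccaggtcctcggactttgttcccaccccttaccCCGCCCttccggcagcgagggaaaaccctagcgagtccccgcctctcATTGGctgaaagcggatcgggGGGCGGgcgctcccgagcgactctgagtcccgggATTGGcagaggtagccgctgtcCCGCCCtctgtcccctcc
Insig1: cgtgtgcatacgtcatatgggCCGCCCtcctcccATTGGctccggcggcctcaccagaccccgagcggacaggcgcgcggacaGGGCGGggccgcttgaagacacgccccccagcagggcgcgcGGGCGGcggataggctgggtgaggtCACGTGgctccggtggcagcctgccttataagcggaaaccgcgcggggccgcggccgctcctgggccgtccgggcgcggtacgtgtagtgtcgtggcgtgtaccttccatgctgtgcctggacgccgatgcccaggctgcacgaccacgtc
Lss: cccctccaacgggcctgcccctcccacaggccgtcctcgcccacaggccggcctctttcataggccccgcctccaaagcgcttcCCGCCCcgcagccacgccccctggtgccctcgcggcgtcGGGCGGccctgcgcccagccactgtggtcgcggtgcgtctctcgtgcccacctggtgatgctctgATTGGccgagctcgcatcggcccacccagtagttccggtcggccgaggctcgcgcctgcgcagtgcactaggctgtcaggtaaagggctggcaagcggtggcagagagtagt
Abca1: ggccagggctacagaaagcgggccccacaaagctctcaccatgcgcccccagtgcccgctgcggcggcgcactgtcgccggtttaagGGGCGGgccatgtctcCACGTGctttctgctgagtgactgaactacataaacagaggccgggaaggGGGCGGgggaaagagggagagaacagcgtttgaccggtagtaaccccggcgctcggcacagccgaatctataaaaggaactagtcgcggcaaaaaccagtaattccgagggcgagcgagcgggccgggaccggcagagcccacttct

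Of the 39 listed genes, 31 had an entry in the promoter table, with 40 windows in all. Abcg1, Fads1, Fdft1, Fdps, Scd1, Scd2, Sqle and Stard4 are named only. The SREBP site letters occurred in 1 of the 40 windows, that of Hmgcs1, where the match begins 137 bases before the start, and in 1.24% of all 32851 windows of the same length. The core of the NF-Y box occurred in 26 of the 40 windows, against 37.4% of all windows, and the GC box in 30 of 40, against 35.7%. Hmgcs1 holds 4 NF-Y cores and 3 GC boxes, Insig1 1 and 3, Lss 1 and 2, and Abca1 0 and 2. The E-box occurred in 8 of 40 windows, those of Insig1 and Abca1 among them, against 7.15% of all. The LXR direct repeat with 4 bases between its arms was in 0 of the 40 and in 5 of all windows. These matches are a description of letters in short windows; the arrays measured no binding.

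Signals are on the linear scale of the deposited table, and a signal under a floor of 32.4 units, the median of all values, was set to it. Each gene was represented by its brightest probe set. All 38 members were above the floor on all 4 arrays, so none of their differences is a bound. Of their 91 probe sets, 71 were above it on every array and 13 on none. Differences of 2-fold or more were counted as calls, a threshold of size and not of a test. As a measure of precision, probe sets of the same member differed with a pooled SD of between 0.25 and 0.39 on the log2 scale across the 5 comparisons of days, and the SD over 18 probe sets for spiked hybridisation controls was between 0.07 and 0.17. Neither measures variation between cultures.

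Counted over all 38 members, 4 were at least 2-fold higher on day 4 than on day 1 and 0 lower, against 10.0% and 8.65% of all genes; 25 differences were above 0 and 13 below, against 54.0% and 46.0%. From day 4 to day 5, 0 were higher and 1 was lower (2.02% and 4.04% of all genes), with 13 above 0 and 25 below (55.7% and 44.3%). From day 5 to day 7, 4 were higher and 0 lower (0.853% and 5.84%), with 31 above 0 and 7 below (35.4% and 64.6%). From day 4 to day 7 these counts were 4 and 2 (3.12% and 9.12%), and 30 and 8 (42.9% and 57.1%). Over the whole course they were 12 and 2 (12.7% and 16.2%), and 28 and 10 (50.3% and 49.7%). The share of members at least 2-fold higher was thus near the background on day 4, at 10.5% against 10.0%. It was above the background in the comparisons that end on day 7. By sign, members lay above 0 more often than all genes in each comparison except day 5 over day 4, where they did so less often.

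The enzymes of sterol synthesis shared a maximum on the last array. Of the 18 genes, 17 had their highest signal on day 7, which was the highest day for 19.4% of all 12438 genes above the floor on any array; days 1, 4 and 5 were for 34.9%, 15.9% and 29.7%. The exception was Ggps1, highest on day 1. In day 7 over day 4, which spans the days under both cytokines, all 18 differences were above 0 (42.9% of all genes were), with a median of 0.42 on the log2 scale and a range of 0.06 to 1.47. All these counts use the brightest probe sets. In day 7 over day 4, a weaker probe set was below 0 for Ggps1, Sc5d and Cyp51. Only Fdps reached 2-fold in that comparison, where 3.12% of all genes did so upwards.

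**Figure D1:**
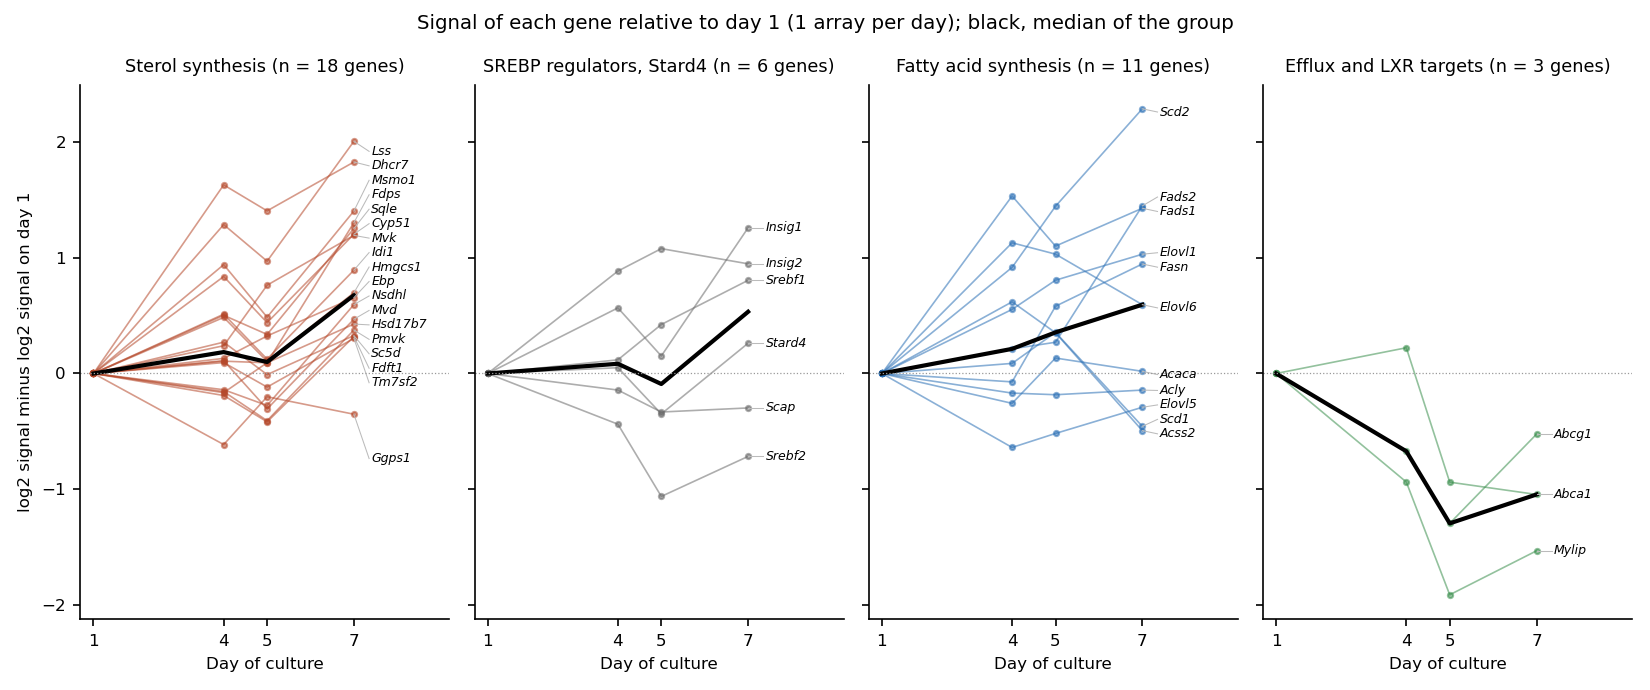
Log2 signal of each member minus its log2 signal on day 1 (vertical axis) against the day of culture (horizontal axis), with 1 array per day, 1 thin line per gene and the group median in black. Of the 18 sterol synthesis genes, 17 end at their highest value on day 7, and the 3 efflux and LXR genes end below day 1.

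The path was not straight. In day 5 over day 4, the first interval with both cytokines, 14 of the 18 sterol genes had a difference below 0, as 44.3% of all genes did; the median was -0.23 against 0.06 for all genes, and no sterol gene reached 2-fold. Between days 5 and 7, 17 of the 18 were above 0 (all 18 after quantile normalization or median scaling), against 35.4% of all genes, with a median of 0.75 against -0.11. Fdps and Lss passed 2-fold upwards, as 0.853% of all genes did. These 2 comparisons share the day 5 array and are not independent. Day 7 over day 4 does not use it. Over the whole course, day 7 over day 1, 7 of the 18 passed 2-fold upwards and none downwards, with a median of 0.68; of all genes 12.7% were higher.

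At the entry to the pathway, Hmgcs1, the cytosolic synthase that makes HMG-CoA, had signals of 2119, 2965, 2279 and 3437 on days 1, 4, 5 and 7. Its signal was thus highest on day 7 and dipped on day 5. The difference of day 7 over day 5 was 0.59 on the log2 scale, between 0.35 and 0.86 over its 4 probe sets. The kinase gene Mvk, which phosphorylates mevalonate, took another course, with signals of 107, 126, 181 and 244 that were higher at each time. It was 2.29-fold higher on day 7 than on day 1, and its second probe set gave a log2 difference of 1.05. Pmvk and Mvd, the following kinase and decarboxylase, had differences of 0.78 on the log2 scale each in day 7 over day 5, after -0.25 and -0.42 in day 5 over day 4. Idi1, the isomerase that provides the reactive isoprene unit, gave 0.77 after -0.39.

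The gene at the branch point stood out within the pathway. Fdps, which encodes farnesyl diphosphate synthase, had signals of 1567, 1397, 1672 and 3869. It was level over the first 3 arrays and high on day 7 alone. Day 7 was 2.31-fold above day 5, 2.77-fold above day 4 and 2.47-fold above day 1. These values come from the single probe set of Fdps that was above the floor; the other was under it on all arrays, and counting that one too leaves a log2 difference of 0.61 for day 7 over day 5.

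Ggps1, which turns farnesyl into geranylgeranyl diphosphate, did not share the pattern of its neighbour. By its brightest probe set its signals were 222, 145, 193 and 174, highest on day 1 and lowest on day 4. Another probe set had 151, 179, 129 and 113, highest on day 4 and lowest on day 7. Its 4 probe sets lay between -0.20 and -0.01 on the log2 scale for day 7 over day 5, where it was the one gene of the 18 below 0, a direction that turned above 0 under quantile normalization and median scaling. Its probe sets spread more widely in day 4 over day 1, from -0.61 to 0.25, and in day 5 over day 4, from -0.47 to 0.42. No direction can be given in either comparison. Of 13 other measured genes for protein prenylation and for dolichol and ubiquinone synthesis, none reached 2-fold in either direction between days 4 and 5, 5 and 7 or 4 and 7. Of all genes, 2.02%, 0.853% and 3.12% did so upwards and 4.04%, 5.84% and 9.12% downwards, so few calls would be looked for among 13 genes. The medians of the 13 over these 3 comparisons were 0.10, -0.06 and 0.04. Over day 7 against day 1, Nus1, a subunit of dolichol synthesis, was higher, by 1.34 on the log2 scale. The prenyltransferase subunit genes Fnta and Rabggtb were at 2973 and 1455 on day 7, against 2972 and 1462 on day 5.

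On the branch to cholesterol, all 11 genes were highest on day 7 by their brightest probe sets. For Hsd17b7 and Sc5d, 1 weaker probe set each, above the floor on all arrays, was highest on day 1. These gave log2 differences of -0.52 and -0.55 for day 7 over day 1. Fdft1, which encodes squalene synthase, had signals of 809, 709, 605 and 1009, with a second probe set at 499.5, 554, 434 and 685. Sqle, the epoxidase that adds oxygen to squalene and limits the flux of this branch, had 603, 855, 763 and 1439. It was 1.89-fold higher on day 7 than on day 5 and 2.38-fold higher than on day 1. Both genes were at their maximum on the last array, and the probe sets of Fdft1 differed in direction between days 1 and 4.

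Lss, the cyclase that forms lanosterol, the first sterol, had signals of 111, 272, 218 and 448. It was 2.44-fold higher on day 4 than on day 1, 2.05-fold higher on day 7 than on day 5, and 4.02-fold higher on day 7 than on day 1. A second probe set, not marked as matching several transcripts, gave log2 differences of 0.87, 1.26 and 1.65 in those comparisons, so the first of the 3 calls depends on the probe set. The call for day 7 over day 5 ended with 16 units added in place of the floor. Another, dim probe set gave -0.12 there.

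The enzymes that trim lanosterol followed. Cyp51, the demethylase, had signals of 344, 616, 467 and 794, and Msmo1, the methyl sterol oxidase, had 827, 1588, 1159 and 2190. They were 2.30-fold and 2.65-fold higher on day 7 than on day 1. Nsdhl, the dehydrogenase of the same step, had 534, 484, 440 and 806, with no gain on day 4 and a difference of 0.87 on the log2 scale in day 7 over day 5. Msmo1 had 0.92 in the same comparison, after a higher day 4. The keto reductase gene Hsd17b7 moved little and differed by probe set, from -0.37 to 0.33 in day 7 over day 5.

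At the end of the pathway, Dhcr7, the reductase that completes cholesterol and whose substrate is also the precursor of vitamin D, had signals of 87.7, 272, 233 and 312. Most of its difference lay between days 1 and 4, at 3.10-fold, and day 7 was 3.55-fold above day 1. Ebp, the isomerase, had 1379, 1509, 1726 and 2172 and was higher at each time, with no dip on day 5. Sc5d and Tm7sf2, the desaturase and a reductase, had differences of 0.34 and 0.42 in day 7 over day 5. A second Sc5d probe set gave -0.36 for day 7 over day 4, against 0.06.

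**Figure D2:**
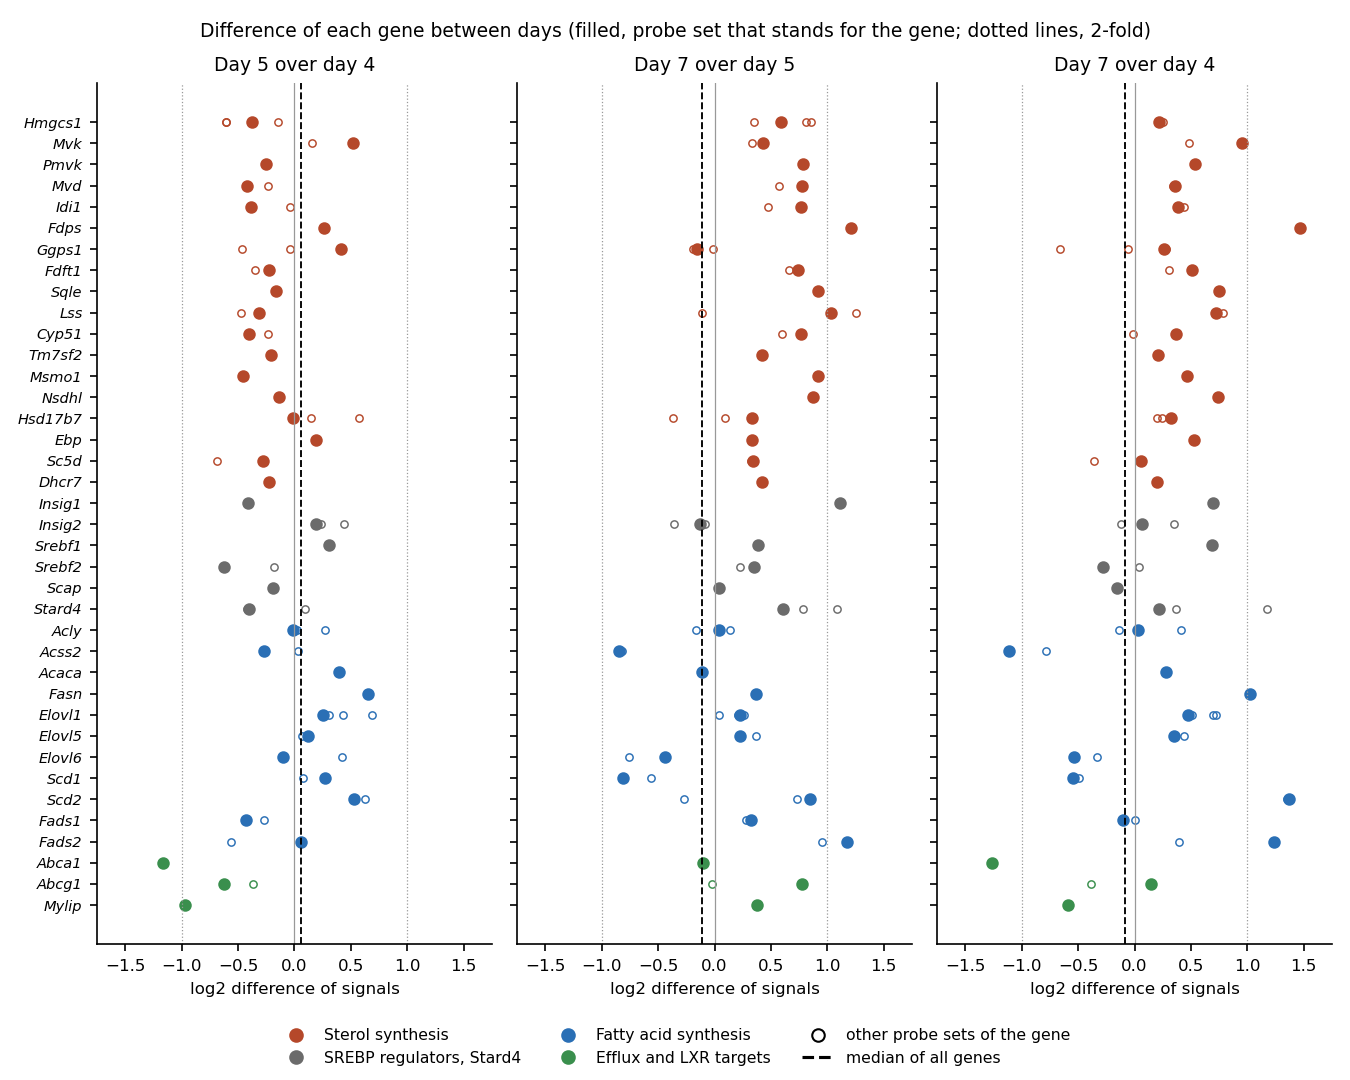
Log2 difference of signals (horizontal axis) for each member (vertical axis, in pathway order) from day 4 to 5 (left), from day 5 to 7 (middle) and from day 4 to 7 (right); filled points are the probe sets that stand for the genes, open points their other probe sets above the floor, the dashed line the median of all genes and the dotted lines 2-fold. Of 18 sterol genes, 14 lie below 0 on the left, 17 above 0 in the middle and 18 above 0 on the right.

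Among the regulators, the feedback gene Insig1, itself raised by SREBPs, followed the enzymes. Its signals were 628, 931, 698 and 1504. Day 7 was 2.16-fold above day 5 and 2.39-fold above day 1. The gene has 1 probe set, which was above the alternative floors on all arrays. Only units added in place of the floor, quantile normalization and median scaling could thus alter these calls. Under those settings both calls of Insig1 held. Its relative Insig2, which answers to other signals, had 346, 640, 732 and 668 and was highest on day 5. Its 3 probe sets lay between -0.36 and -0.09 for day 7 over day 5, where Insig1 was at 1.11; the sign of Insig2 there turned under median scaling.

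The factors themselves went different ways. Srebf1, whose product favours fatty acid genes, had signals of 596, 647, 800 and 1043, higher at each time, with a log2 difference of 0.81 for day 7 over day 1. Srebf2, whose product favours sterol genes, had 754, 557, 361 and 459. It was lowest on day 5 and remained below its day 1 signal on day 7, by a log2 difference of -0.72. The second Srebf2 probe set gave -0.05, so the size of that difference is uncertain. Scap had 710, 643, 564 and 578, with a difference of 0.04 in day 7 over day 5. Of 8 measured genes for the proteases and other proteins that process SREBPs, none reached 2-fold in any of the 5 comparisons, where between 0.853% and 12.7% of all genes did so upwards and between 4.04% and 16.2% downwards. Smaller differences were present: Mbtps2, a protease that cuts SREBPs, had a log2 difference of 0.81 for day 4 over day 1, and Rnf139 one of -0.77 for day 7 over day 1. Stard4, a carrier of cholesterol in the cytosol, had 468, 484, 367 and 561, and its 3 probe sets gave differences of between 0.61 and 1.09 on the log2 scale for day 7 over day 5.

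**Figure D3:**
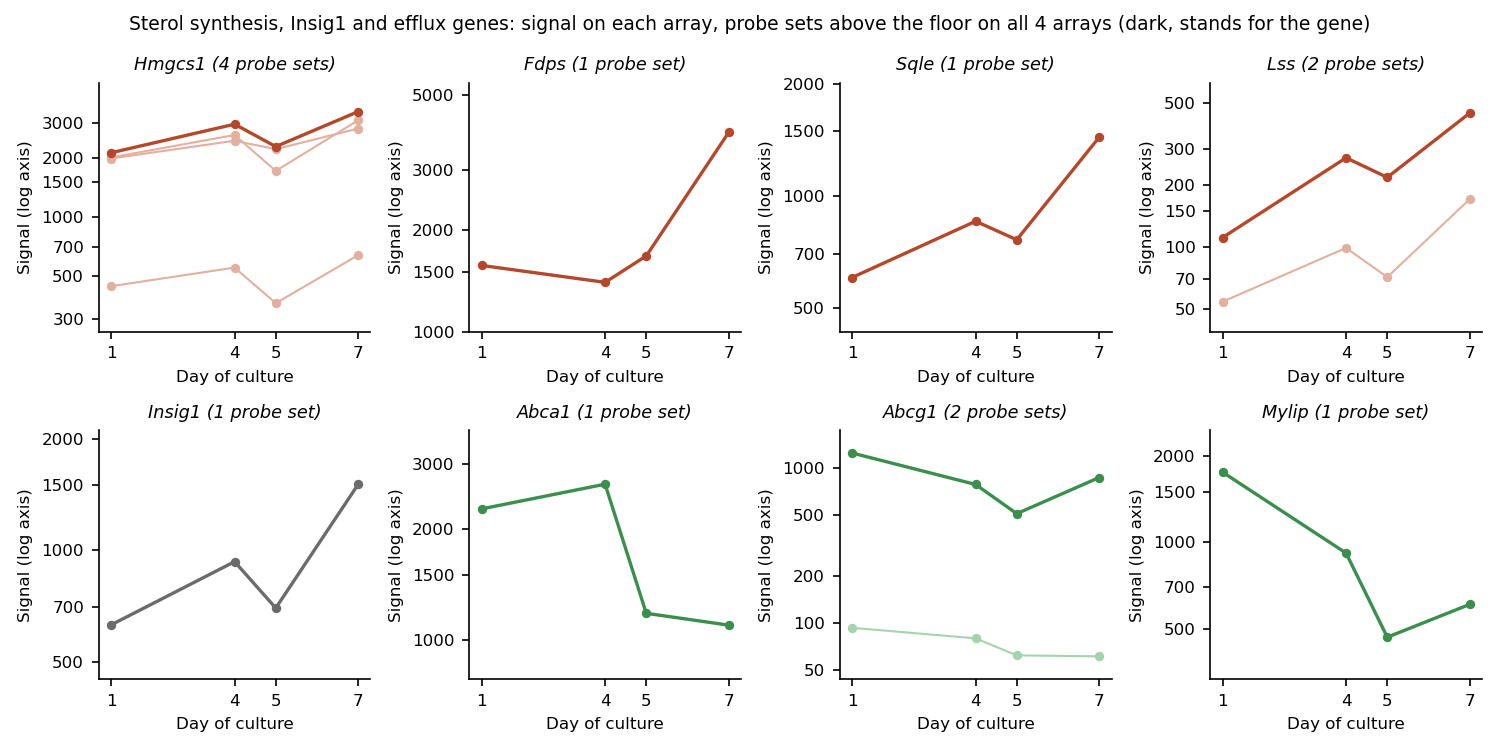
Signal (vertical, log axis) on each array by day of culture (horizontal axis) for 4 sterol synthesis genes, Insig1 and the 3 efflux and LXR genes; dark lines are the probe sets that stand for the genes, pale lines their other probe sets above the floor on all 4 arrays. Fdps runs from 1567 on day 1 to 3869 on day 7, and Abca1 from 2262 to 1096.

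The fatty acid genes did not move as 1 group. Of the 11 genes, 4 peaked on day 7; the peak of 2 was on day 5, that of 3 on day 4 and that of 2 on day 1. Between days 5 and 7 their median was 0.22, with 7 above 0 and 4 below (8 above after quantile normalization or median scaling), against 0.75 for the sterol genes. From day 4 to day 7, 3 reached 2-fold upwards and 1 downwards, where 3.12% and 9.12% of all genes were. Against day 1, 4 were higher on day 7 and none was lower, where 12.7% and 16.2% were.

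The genes of carbon supply and of the first step showed small differences. Acly, which makes cytosolic acetyl-CoA from citrate, had signals of 3191, 2837, 2809 and 2888. Acaca, the carboxylase that makes malonyl-CoA and commits carbon to fat, had 260, 217, 285 and 263. By these probe sets the largest difference of either gene in any comparison was 0.39 on the log2 scale, that of Acaca in day 5 over day 4. Another probe set of Acly, one that matches several transcripts, gave a difference of 0.75 for day 7 over day 1, against -0.14. Fasn, the synthase that builds palmitate, had 371, 353, 555 and 715 and was 2.03-fold higher on day 7 than on day 4. That call sits at the threshold and ended at 0.99 on the log2 scale with 16 units added in place of the floor.

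Acss2, which makes acetyl-CoA from acetate, went the other way. Its signals were 285, 437, 363 and 202, highest on day 4 and lowest on day 7, while a second probe set had 183, 397, 405 and 230, highest on day 5 and lowest on day 1. Day 7 was 2.16-fold below day 4 by the first. The call ended under quantile normalization and median scaling, and the second probe set gave a log2 difference of -0.79. For day 7 over day 1 the probe sets differed in sign, at -0.49 and 0.33.

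The desaturases split. Scd2 and Scd1 encode isoenzymes that put the first double bond into stearate and palmitate. Scd2 had signals of 1155, 2181, 3145 and 5640, higher at each time, and day 7 was 4.88-fold above day 1 and 2.59-fold above day 4. A second Scd2 probe set gave 1.58 on the log2 scale for day 7 over day 1, against 2.29. Scd1 had 526, 559, 673 and 383, highest on day 5 and lowest on day 7; its second, dimmer probe set had 56.4, 103, 108 and 73.2. Between days 5 and 7 the difference was 0.84 on the log2 scale for Scd2 and -0.81 for Scd1. For Scd1 both probe sets were below 0, at -0.81 and -0.57. Of Scd2's 3, a dim one near the floor gave -0.27 and the others 0.73 and 0.84.

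Fads1 and Fads2, the desaturases of polyunsaturated fatty acids, lie side by side in the genome. By their brightest probe sets, their largest steps came at different times, and both were above day 1 on day 7. Fads2 had signals of 92.8, 108, 112 and 253, level until day 5 by this probe set and 2.26-fold higher on day 7 than on day 5. Its second probe set gave a log2 difference of 0.96 for that step. That probe set was not level before it, at -0.56 in day 5 over day 4, and gave 0.40 for day 7 over day 4, against 1.24. Fads1 had 403, 1167, 864 and 1084 and was 2.90-fold higher on day 4 than on day 1, with no later step of 2-fold. Its day 7 signal was 2.69-fold above day 1. A second, dim Fads1 probe set gave -0.18 for day 4 over day 1 and also for day 7 over day 1. Neither call held when the 2 were averaged.

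Of the elongases, Elovl1, which lengthens saturated chains, had signals of 2288, 3360, 4001 and 4676, higher at each time, with a 2.04-fold difference for day 7 over day 1 that was between 0.81 and 1.47 on the log2 scale over 4 probe sets. The call ended under quantile normalization, at 0.86. Elovl6, which takes palmitate to stearate, had 186, 407, 380 and 281. It was 2.19-fold higher on day 4 than on day 1 and lower again on day 7, with a log2 difference of -0.44 for day 7 over day 5. Elovl5, which lengthens polyunsaturated chains, had 2757, 1770, 1925 and 2252 and was highest on day 1.

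**Figure D4:**
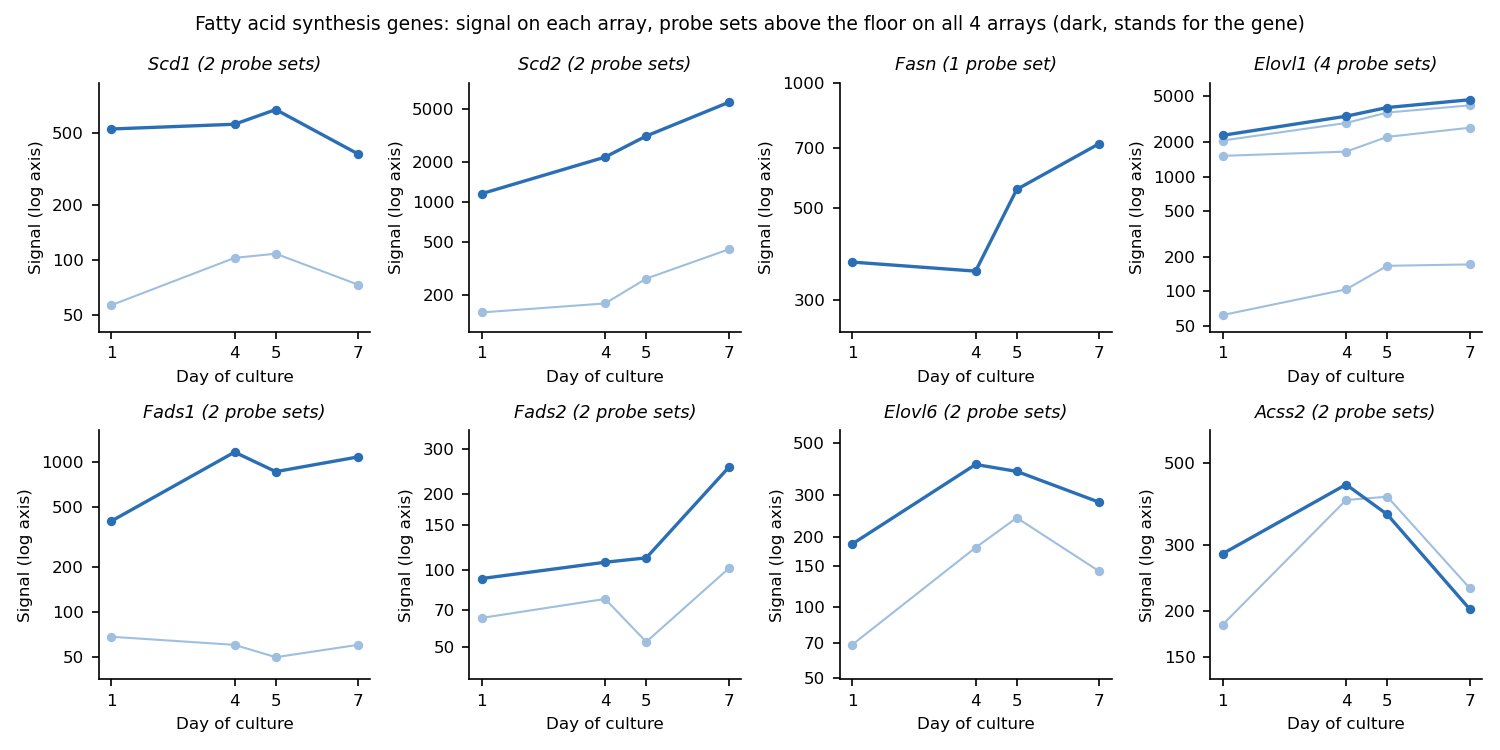
Signal (vertical, log axis) on each array by day of culture (horizontal axis) for 8 fatty acid synthesis genes; dark lines are the probe sets that stand for the genes, pale lines their other probe sets above the floor on all 4 arrays. Scd2 reaches 5640 on day 7 while Scd1 is at its lowest, 383, on the same array.

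The 3 efflux and LXR genes were all lower on day 7 than on day 1. Abca1, which loads cholesterol onto lipid-poor apolipoprotein, had signals of 2262, 2639, 1180 and 1096. They were high on days 1 and 4 and low on days 5 and 7. Day 5 was 2.24-fold below day 4, the 1 member that far below in that comparison (quantile normalization added Mylip), where 4.04% of all genes were. Day 7 was 2.41-fold below day 4 and 2.06-fold below day 1; the last call ended under median scaling, at -0.91 on the log2 scale. These values rest on 1 of 3 probe sets, since the others were at or near the floor.

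Mylip had signals of 1756, 916, 466 and 607. It was lower at each step to day 5, with log2 differences of -0.94 and -0.97, and day 7 was 2.89-fold below day 1. Abcg1, which exports cholesterol to mature lipoprotein particles, had 1245, 781, 507 and 866, lowest on day 5. Its difference in day 7 over day 5 was 0.77 on the log2 scale by this probe set and -0.02 by a second one, so a return on day 7 was seen with 1 of 2 probe sets. As a group, the 3 had medians of -0.67, -0.97 and 0.38 over the successive intervals and of -1.05 for day 7 over day 1.

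Set side by side, the sterol median exceeded the efflux median by 1.02 on the log2 scale in day 7 over day 4 and by 1.72 in day 7 over day 1. The fatty acid median lay 0.87 and 1.64 above that of efflux in the same comparisons. The sterol median lay 0.15 and 0.08 above the fatty acid median there. For day 7 over day 5 it lay 0.53 above that of fatty acid synthesis and 0.37 above that of efflux, and the fatty acid median was below the efflux median, with a difference of -0.16. A median of 3 genes moves with each of them, and with 1 array per day these gaps have no test.

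Other genes of the same pathways were listed by their known roles. Of 8 measured genes for sterol uptake, storage and transport in the lysosome, none reached 2-fold in any of the 5 comparisons. Between 0.853% and 12.7% of all genes did so upwards and between 4.04% and 16.2% downwards. The median of the 8 for day 7 over day 5 was 0.19 on the log2 scale, against -0.11 for all genes. Npc1 and Lipa, which free cholesterol in the lysosome, had signals of 1877 and 7191 on day 4 and 1251 and 5447 on day 7. Of 15 other fatty acid genes measured in day 7 over day 5, 2 reached 2-fold upwards and none downwards, against 0.853% and 5.84% of all genes. Acsl3, an acyl-CoA synthetase of lipid droplets, had 112, 223, 263 and 553, 4.93-fold higher on day 7 than on day 1. Hacd4, a dehydratase of chain elongation, had 2645, 2272, 657 and 1873, 3.46-fold lower on day 5 than on day 4 and 2.85-fold higher on day 7 than on day 5. Me1, which supplies reducing power, had 63.7, 227, 336 and 203.

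The wider LXR list was mixed. Of 12 measured genes, 5 fell short of their day 1 signal by 2-fold or more on day 7 and none exceeded it so far, with a median of -0.63; 16.2% of all genes were lower. The list's median for day 4 over day 1 was 0.10. Above their day 1 signal on day 7 were Lpcat3, Abcg2 and Abcg4, by 0.70, 0.68 and 0.25 on the log2 scale. The value of Abcg4 is a bound, since its day 1 signal of 23.8 was under the floor, and its day 7 signal of 38.6 was near it. Lpcat3, which remodels phospholipids, had 636, 868, 991 and 1032, higher at each time. Nr1h3, the gene for LXR alpha, had signals of 245, 240, 235 and 123, so that its lower level appeared on day 7 alone, after that of Abca1. It was 2.00-fold lower than on day 1, at the threshold. The apolipoprotein gene Apoc2 and the transporter gene Abca7 were lower at each time: Apoc2 went from 2630 on day 1 to 160 on day 7, and Abca7 from 995 to 274. Apoc1 was at 127 on day 1 and under the floor on days 5 and 7. Apoe, the main lipid-carrying protein of macrophages, had 11284, 12718, 10206 and 7135, with a log2 difference of -0.66 for day 7 over day 1. Abcg2 had 155, 339, 485 and 248.

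The cell types in the culture shifted over the same arrays, and in such bulk samples fewer cells of a type and less RNA per cell cannot be told apart. The summed signal of 12 osteoclast markers was 16956, 29726, 49655 and 58021. Of these 12, 10 were at least 2-fold higher on day 7 than on day 1, and 1, Car2, was that far lower. Of all genes, 12.7% and 16.2% were. Car2 gave 7267 of the day 1 sum and was at 656 on day 4. Itgb3 was at 1156 on day 1 and 610 on day 7. The summed signal of 12 macrophage markers was 41655, 75500, 70715 and 72053. The 12 stromal markers summed to 4477, 33879, 41903 and 26990. From day 5 to day 7, 8 of them were lower by 2-fold or more, where 5.84% of all genes were. In that interval 10 of 12 neutrophil and 8 of 10 megakaryocyte markers were also that far lower. Of the 18 sterol genes, 17 had a difference above 0 there, and 2 were at least 2-fold higher, as 0.853% of all genes were. The 12 neutrophil markers went from 119597 to 5366, and the 10 red cell markers from 29494 on day 1 to 362 on day 4. Of 10 adipocyte markers, 7 were above the floor on day 5, with Cidec, Lep and Retn under it on all arrays; the list summed to 10534, 18409, 16065 and 15095. Of that sum Lpl, which macrophages also make, gave 11903 on day 7. Adipoq had 44.9, 235, 452 and 554, while Fabp4 had 3241, 5134, 2770 and 1842 and Pparg 239, 569, 395 and 267; the median of the 7 measured was -0.63 for day 7 over day 4. For 11 cell cycle genes the sums were 15205, 10897, 20822 and 19645, for 9 B cell genes 8982, 5212, 2749 and 2825, and for 10 megakaryocyte genes 17999, 22600, 15227 and 8416. Single genes carried the last sums: Blnk gave 2564 of the B cell sum on day 7 and Pf4 8027 of the megakaryocyte sum. Of the 5 B cell genes measured between days 5 and 7, 4 were lower by 2-fold or more, against the same 5.84% of all genes, with a median of -1.35. The part of these shifts in the results above was not tested.

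The scaling of the arrays bears on day 7. The median difference of all genes in day 7 over day 5 was -0.11 in the deposited values, 0.03 with quantile normalization and 0.06 with median scaling. Measured from that median, the sterol median was 0.86, 0.79 and 0.87, the fatty acid median 0.34, 0.20 and 0.34, and the efflux median 0.49, 0.49 and 0.50. As deposited, 12.7% of all 2-fold calls in that comparison were upward, 31.7% after quantile normalization and 27.2% after median scaling. With median scaling 8 members reached 2-fold in place of 4, Sqle, Msmo1, Nsdhl and Scd2 being added, and with quantile normalization 4 did.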

How the data were processed

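Signals were measured on 4 Affymetrix mouse arrays, 1 per day of culture, grouped by the day in their titles. The deposited table holds 1 intensity per probe set and array, unlogged, as made by the authors with GCOS 1.4 and MAS5 per the submitters' processing notes; a scaling target is not stated there. Of 45101 probe sets, 64 controls were left out, 34945 had 1 gene symbol in the platform annotation, 932 several and 9160 none. Signals under the median of all values were set to it, differences were taken on the log2 scale, and the probe set of highest mean stood for its gene. A call is a difference of at least 2-fold, and its background is the share of all genes above the floor on either array. The number of arrays limits precision. The members and the gene lists were chosen with earlier results of these data known. All members could be named, and of other lists up to 4 genes with the largest differences. Beyond that rule came Fnta, Rabggtb, Npc1, Lipa, Mbtps2, Rnf139, Nr1h3, Lpcat3, Abcg4 and Apoe. So did Car2, Itgb3, Lpl, Blnk, Pf4 and the markers under the floor. Genes beyond the rule were chosen after their values were seen. The marker and pathway lists were written from textbook roles. Alternatives were floors at the 25th and 60th percentile (8.43 and 68.9), 16 units added with no floor, quantile normalization, median scaling, the mean over probe sets, and leaving out probe sets that match several transcripts; a mean over the probe sets above the floor on all arrays was chosen after seeing the data. The scripts were tested on simulated data. Calculations used Python 3.11.15, numpy 2.4.6, pandas 2.3.3 and matplotlib 3.10.9.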

Additional observations from a re-analysis of the deposited data

How the results depend on the processing

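Of 29 calls of a member at 2-fold, 9 held under every alternative run for them and 0 changed direction: Dhcr7 in day 4 over day 1, Insig1 in day 7 over day 5, and Mvk, Sqle, Lss, Dhcr7, Insig1, Scd2 and Mylip in day 7 over day 1. Of the genes in these 9 calls, Dhcr7, Insig1, Sqle and Mylip have 1 probe set each. Settings that average or leave out probe sets therefore could not change their values. The alternative floors changed no call, since every signal behind the calls was above both. For genes with 1 probe set, only the added units, quantile normalization and median scaling could alter a call. The mean over all probe sets of a gene lowered the counts most, since probe sets under the floor enter it with no difference. It gave 1 member at 2-fold in place of 4 for days 1 to 4, 0 in place of 1 for days 4 to 5, 1 in place of 4 for days 5 to 7, 1 in place of 6 for days 4 to 7 and 8 in place of 14 for days 1 to 7. It also gave efflux medians of -0.49 in day 5 over day 4 and -0.57 in day 7 over day 1. Quantile normalization gave 2 members in day 5 over day 4, with Mylip added, and median scaling gave 8 in day 7 over day 5. The mean over probe sets above the floor on all arrays gave 4 members in place of 6 for days 4 to 7. No other count of members moved by 1.5 times or more, and no other group median moved by more than the SD between probe sets of single members, which is a loose bound for a median. Msmo1 and Elovl1 have no value without probe sets that match several transcripts. No replicate could be left out, since each day has 1 array. No paired analysis was possible because each day has 1 array. Probe sets near the floor of 32.4 units carry little information on direction.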
